A study of Mus musculus with 21 samples.

Results

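B220-positive bone marrow cells of mice carrying a Cebpb LAP transgene were compared with the same cells of wild-type (WT) mice, on 3 arrays against 3 of the 21 in the study. The 6 arrays were taken by their titles, LAP tg BM 1 to 3 and wt BM 1 to 3. Both groups have an unaltered Blnk gene, as far as the labels say, and differ by the LAP transgene. The study also profiled marrow of mice with LAP tg and Blnk KO together, marrow of Blnk KO mice, and LB31, a leukaemia line of mouse pre-B cells. The promoter and cell type that drive the transgene, the strain, age and sex of the mice, and whether a sample came from 1 mouse or several are not given in the sources used here. Each p-value below therefore covers the spread between arrays alone, and that spread may be technical. It was estimated over 12 marrow arrays, the 6 compared here and those of the 2 Blnk KO groups.

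C/EBPβ, the product of Cebpb, is a transcription factor of myeloid cells, liver and fat, and LAP is its activating isoform. B220 is the CD45 isoform of the B lineage, and B220-positive marrow runs through pro-B, pre-B and immature B cells to mature B cells that have returned to the marrow. C/EBP factors are known to act against the B-cell programme, and forced expression of C/EBPα or C/EBPβ can turn B-lineage precursors into macrophage-like cells.

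The values are hybridization intensities that the authors made with MAS5, used here as normalized log2 signals, so that a difference of 1 is a doubling. The median deposited intensity was 20.9, 21.4 and 21.1 on the LAP tg arrays, against 21.1, 19.6 and 23.7 on the WT arrays. The 3′ to 5′ ratio of the Gapdh control probe sets was 0.874, 0.994 and 1.04 on the LAP tg arrays, against 0.788, 0.805 and 0.764 on the WT arrays, without overlap, and its part in the results was not tested. The actin ratio overlapped, at 1.37, 1.46 and 1.40 on the LAP tg arrays and 1.41, 1.37 and 1.45 on the WT arrays. B-lineage markers were high in both groups: Cd79b, a signalling chain of the B-cell receptor, had log2 signals of 12.93, 12.98 and 12.65 in LAP tg marrow, against 12.99, 12.93 and 12.96 in WT marrow. The B-lineage markers Cd79a, Ptprc, Pax5, Ebf1 and Ms4a1 had no called difference either.

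The third LAP tg array stood apart by genes of other marrow lineages. Over 21 measured neutrophil genes, the mean log2 signal was 8.47, 7.96 and 10.16 on the LAP tg arrays, against 7.86, 8.34 and 7.94 on the WT arrays. Over 34 monocyte and macrophage genes it was 8.10, 7.90 and 9.16 on the LAP tg arrays, against 7.56, 7.85 and 7.62 on the WT arrays. Over 15 erythroid genes it was 8.87, 8.08 and 10.10 on the LAP tg arrays, against 8.32, 8.22 and 8.5 on the WT arrays. On each of these lists the third array was the highest of the 6, and the other 2 LAP tg arrays lay much closer to the WT arrays. Lists for basophils, megakaryocytes and T and NK cells had the same array on top, at 7.25, 8.0 and 6.06. The granule gene Mpo, which encodes myeloperoxidase, had 8.0, 7.80 and 11.12 in LAP tg marrow, against 7.53, 7.81 and 7.39 in WT marrow. Its difference of 1.40 ± 0.65 (SE, n = 3 each) had an adjusted p of 0.241 in limma, and was 0.32 without the third LAP tg array. Met, Ctsg, Mmp8, Gpc1, Pot1b, Prtn3, Tlcd4 and Pi16, also among the genes that most set that array apart, were called neither with nor without it. S100a8, a calprotectin subunit abundant in neutrophils, was at 13.18, 12.89 and 13.72 in LAP tg marrow, against 12.82, 12.97 and 12.95 in WT marrow, so neutrophil RNA was present in both groups. In such bulk samples, fewer cells of a type and less RNA per cell cannot be told apart. Results that depended most on the third LAP tg array are also given without it. Slc2a4, the gene that set this array apart most, had 3.56, 2.77 and 6.62 in LAP tg marrow, against 4.95, 5.26 and 5.37 in WT marrow. Its change of -0.88 ± 0.69 was not called (adjusted p = 0.504). Without the third LAP tg array it was -2.04 and was called (adjusted p = 0.00281). The signals on LAP tg arrays 1 and 2 lay under 4.20, the level of the filter on dim probe sets.

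**Figure D1:**
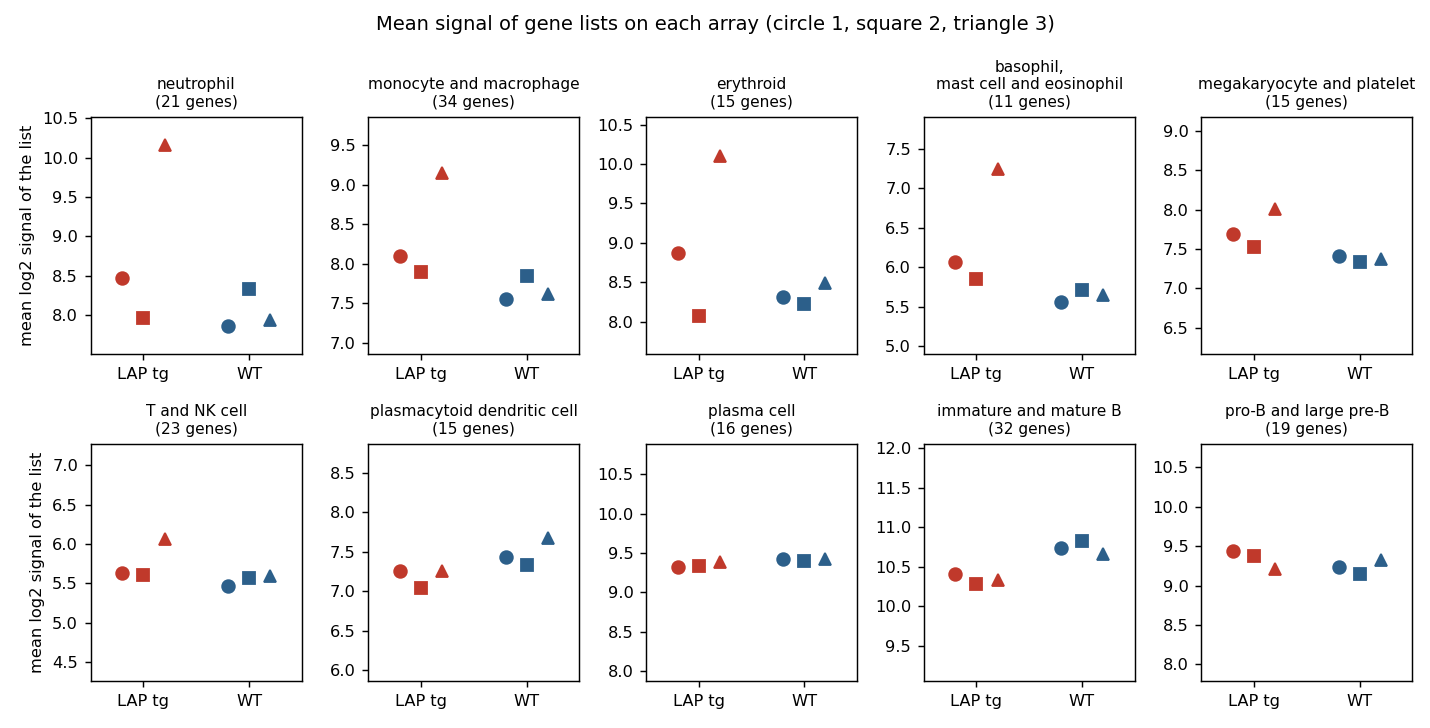
Mean normalized log2 signal of 10 gene lists on each array, with LAP tg arrays on the left and WT arrays on the right of each panel; circle, square and triangle are arrays 1, 2 and 3. The third LAP tg array is the highest for neutrophil genes (10.16) and erythroid genes (10.10), while for the immature and mature B list all 3 LAP tg arrays, at 10.28 to 10.40, lie below all 3 WT arrays, at 10.67 to 10.82.

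Of the 2 Cebpb probe sets, 1 was called higher in LAP tg marrow. Which part of the transcript each reads was not checked, so transgene and endogenous Cebpb cannot be told apart. Probe set 1427844_a_at had deposited intensities of 977.6, 842.9 and 824.7 in LAP tg marrow, against 36.87, 40 and 44.75 in WT marrow. Its log2 signal was 4.36 ± 0.16 higher (SE, n = 3 each), a 20.6-fold rise with an adjusted p of 1.02e-08, and the third LAP tg array did not differ from the others. Probe set 1418901_at gave 229.3, 167.2 and 559.0 in LAP tg marrow, against 143.5, 161.4 and 135.7 in WT marrow. Here the third LAP tg array was the highest of the 6, and the difference of 0.98 ± 0.39 was not called (adjusted p = 0.195 among all probe sets). The single Blnk probe set had intensities of 4451, 4512 and 3330 in LAP tg marrow, against 4738, 5006 and 5103 in WT marrow. That difference of -0.15 ± 0.11 on the log2 scale was not called either (adjusted p = 0.478). The same probe set had 4458, 3907 and 4523 in LAP tg/Blnk KO marrow and 5844, 5083 and 4913 in Blnk KO marrow, so it does not fall on the arrays labelled Blnk KO and does not check that label. Cebpb, represented by 1427844_a_at, was the only 1 of 5 measured C/EBP family genes that was called, where 2.1% of all genes were called higher. That probe set was chosen for its mean over all 21 arrays, which include the LAP arrays where it is high. In WT marrow the uncalled 1418901_at was the brighter, so the call of the gene adds nothing to that of its probe set. Cebpa and Cebpd, whose products pair with C/EBPβ, had differences of 1.18 ± 0.48 and 1.00 ± 0.36 (adjusted p = 0.186 and 0.146), which were 0.91 and 0.50 without the third LAP tg array.

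Across the genome, 530 of 13347 genes were called at an adjusted p under 0.05 in limma, 3.97% of those tested. Of these, 280 were higher in LAP tg marrow (2.1%) and 250 lower (1.87%), and 66 rises and 45 falls were at least 2-fold. The median change over all genes was 0.00 on the log2 scale, and 2775 genes had an unadjusted p under 0.05. The split depends on how arrays are scaled: higher calls were 52.8% of all calls after quantile normalization, 30.6% on the values as deposited and 29.9% after median centring. The 3 LAP tg arrays did not overlap with the 3 WT arrays for 529 of the 530 genes, the exception being Ica1. Of all tested genes, 25.7% had no overlap. The calls were made from these same arrays, so the lack of overlap is no separate support for them. Without the third LAP tg array, 338 genes were called, 170 higher and 168 lower. They included 291 of the 530, and none of the 530 changed sign. The count was lower still, 169 to 239, when any 1 WT array was left out.

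**Figure D2:**
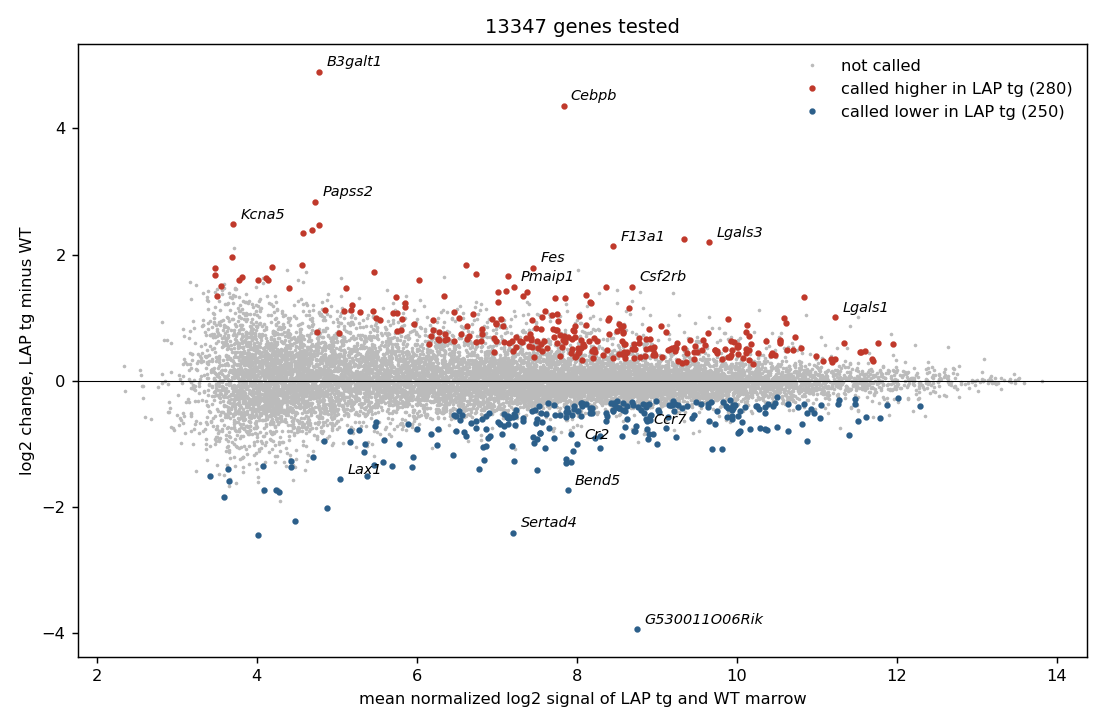
Log2 change of each of the 13347 genes tested, LAP tg minus WT, against its mean normalized log2 signal in the 6 arrays. Red points are the 280 genes called higher and blue points the 250 called lower in LAP tg marrow; Cebpb (4.36) and B3galt1 (4.90) lie above all other called genes, and G530011O06Rik (-3.93) below them.

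The largest rise was that of B3galt1, which encodes a galactosyltransferase of glycan synthesis. Its log2 signals were 7.60, 7.46 and 6.64 in LAP tg marrow, against 2.12, 2.57 and 2.32 in WT marrow, a change of 4.90 ± 0.29 (adjusted p = 3.24e-06). Of the 5 B3galt1 probe sets, 4 passed the filter on dim signals, and each of these was called higher. On the WT arrays all 4 were under the filter level. They passed through other arrays, so their calls are no separate support for the rise. The WT signals lay under 4.20, the level of the filter on dim probe sets, so the size of the rise depends on the constant of 4 added before taking logs and ranged between 3.26 and 6.21 over the alternatives. The same holds for Papss2, Kcna5, Ccl3, Vcan, Htra3, Il9r, Crhbp and Lad1, the other rises among the 15 largest whose WT signals were dim. The reported probe sets of B3galt1, Vcan and Htra3 were under 4.20 on every WT and Blnk KO array. They thus entered the fit only through arrays of LAP marrow. Ccl3, a chemokine of macrophages and activated lymphocytes, had 6.20, 5.79 and 6.06 in LAP tg marrow, against 3.92, 2.48 and 4.26 in WT marrow, a change of 2.47 ± 0.40 (adjusted p = 0.00619). Kcna5, a voltage-gated potassium channel, rose by 2.48 ± 0.22 (adjusted p = 0.000107), and Papss2, which makes the sulfate donor PAPS, by 2.84 ± 0.45 (adjusted p = 0.00578). Vcan, the matrix proteoglycan versican, and Htra3, a serine protease, rose by 2.39 ± 0.37 and 2.34 ± 0.40 (adjusted p = 0.00551 and 0.00767). Another Vcan probe set gave 1.41 and was not called. Others of Htra3 gave 1.83, which was called, and 0.26, which was not. The calls of Crhbp (1.80 ± 0.35) and Lad1 (1.78 ± 0.33) held with any array left out, at adjusted p up to 0.0497 and 0.0498, but not with only the 6 arrays in the fit (adjusted p = 0.0994 and 0.0693). Il9r, the interleukin-9 receptor, rose by 1.96 ± 0.43 (adjusted p = 0.0252). Its call held only without LAP tg array 2, with adjusted p up to 0.104 without any other single array.

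Cebpb apart, the 5 largest rises among genes whose mean was above the filter level in both groups were those of Anxa2, Lgals3, F13a1, Flt3 and Fes. Anxa2, a membrane-binding annexin, had log2 signals of 10.31, 10.15 and 10.93 in LAP tg marrow, against 7.99, 8.48 and 8.19 in WT marrow, a change of 2.24 ± 0.27 (adjusted p = 0.00101). Another Anxa2 probe set gave 0.70 ± 0.28 and was not called (adjusted p = 0.205 among all probe sets). Lgals3, the galactoside-binding lectin galectin-3, had 10.55, 10.61 and 11.11 in LAP tg marrow, against 8.38, 8.80 and 8.5 in WT marrow, a change of 2.19 ± 0.27 (adjusted p = 0.00116). F13a1, the A subunit of coagulation factor XIII, had 9.11, 9.23 and 10.22 in LAP tg marrow, against 7.38, 7.64 and 7.15 in WT marrow, a change of 2.13 ± 0.23 (adjusted p = 0.000522). For all 3 genes the third LAP tg array was the highest, and the other 2 were also far above every WT array. Without it the changes were 2.01, 2.02 and 1.79, and each was still called. Fes, a tyrosine kinase of the haematopoietic system, had 8.16, 8.40 and 8.5 in LAP tg marrow, against 6.57, 6.55 and 6.57 in WT marrow. Its change was 1.79 ± 0.13 (adjusted p = 1.57e-05). Csf2rb, the signalling chain shared by the receptors of IL-3, IL-5 and GM-CSF, had 9.35, 9.29 and 9.67 in LAP tg marrow, against 7.91, 7.80 and 8.13 in WT marrow. Its change of 1.49 ± 0.14 (adjusted p = 0.000137) was between 1.38 and 1.58 with any array left out. Flt3, a receptor tyrosine kinase of early progenitors, had 7.09, 7.16 and 8.34 in LAP tg marrow, against 5.87, 5.69 and 5.54 in WT marrow, a change of 1.83 ± 0.41 (adjusted p = 0.0286). Flt3 was not called without the third LAP tg array (1.42, adjusted p = 0.0779), nor without WT array 1, 2 or 3 (adjusted p up to 0.101).

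**Figure D3:**
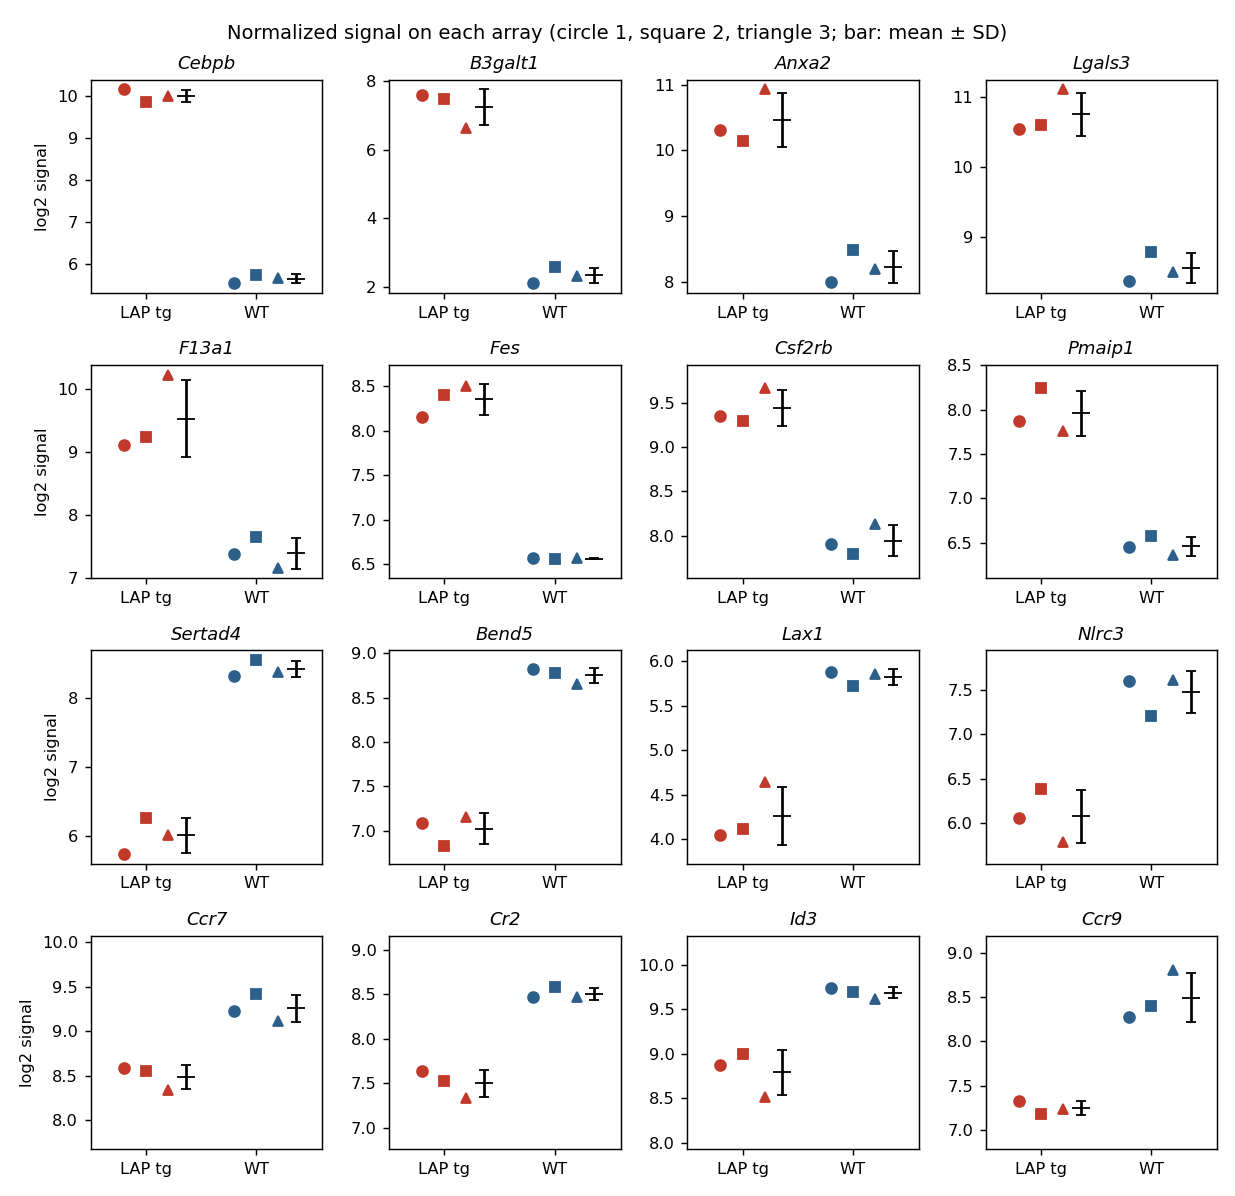
Normalized log2 signal of 16 genes on each array, LAP tg on the left and WT on the right of each panel; the black bars are means ± SD of 3 arrays, and vertical axes differ between panels. The groups do not overlap in any of the 16 panels, and for F13a1 the third LAP tg array (10.22) lies above the other 2 (9.11 and 9.23).

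A list of 50 measured C/EBP-linked and macrophage-type genes, drawn up with earlier results of these data known, had 11 members called higher and 2 lower. Its median change was 0.58 on the log2 scale, and 0.18 without the third LAP tg array, against 0.00 over all genes. The shares called higher and lower over all genes were 2.1% and 1.87%. Besides B3galt1, Ccl3, Anxa2, Lgals3, F13a1 and Csf2rb, the genes Ccl9, Lgals1, Ctsb, Ahnak and Cd44 rose. Ccl9, a CC chemokine, had 7.76, 7.74 and 8.44 in LAP tg marrow, against 6.45, 6.43 and 6.06 in WT marrow, a change of 1.67 ± 0.26 (adjusted p = 0.00551). Lgals1, galectin-1, had 11.75, 11.76 and 11.69 in LAP tg marrow, against 10.66, 10.79 and 10.72 in WT marrow, a change of 1.01 ± 0.08 (adjusted p = 5.76e-05). The 3 LAP tg arrays were close together for Lgals1, and the third was the lowest. The calls of Ctsb (0.92 ± 0.21) and Ahnak (0.75 ± 0.18) were lost without the third LAP tg array, at adjusted p of 0.0711 and 0.111. They were also lost without WT array 1, 2 or 3, Ctsb without LAP tg array 1 and Ahnak without LAP tg array 2 (adjusted p up to 0.121 and 0.132). S100a10, whose product binds annexin A2, fell by 0.45 ± 0.10 (adjusted p = 0.0272), in the opposite direction to Anxa2. Its call was lost without the third LAP tg array (-0.35, adjusted p = 0.0711) and without WT array 1, 2 or 3 (adjusted p up to 0.101). Nlrc3, a cytosolic receptor of the NLR family that restrains innate signalling, had 6.06, 6.38 and 5.79 in LAP tg marrow, against 7.60, 7.21 and 7.62 in WT marrow. It fell by 1.40 ± 0.16 (adjusted p = 0.000724) and was called with any array left out.

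Of 28 measured lysosomal and phagosomal genes, 9 were called higher and none lower, at a median of 0.44, where 2.1% of all genes were called higher and 1.87% lower. The 9 included the proteases Ctsa, Ctsb and Ctsz, the sphingolipid-degrading Hexa, the prosaposin gene Psap and the granulin precursor Grn. The others were the oxidase subunit Ncf1 and the proton pump subunits Atp6v0d1 and Atp6v1b2. Ctsz, a cysteine cathepsin, had 12.19, 12.21 and 12.35 in LAP tg marrow, against 11.60, 11.63 and 11.76 in WT marrow, a change of 0.59 ± 0.10 (adjusted p = 0.00719). Psap, the prosaposin precursor, had 11.96, 11.88 and 12.36 in LAP tg marrow, against 11.39, 11.59 and 11.41 in WT marrow, a change of 0.60 ± 0.11 (adjusted p = 0.0107), which was lost without WT array 1 or 3 (adjusted p up to 0.056). Ncf1, a subunit of the phagocyte NADPH oxidase, rose by 0.89 ± 0.16 (adjusted p = 0.00848), though its other 2 probe sets were not called (0.22 and 0.75). The third LAP tg array was the highest for all 3 genes. Without that array the list's median was 0.30 and 4 members were called, and without WT array 1, 2 or 3 the counts were 3, 6 and 3. The values as deposited gave 2 calls and median centring 7. The list's mean level was 9.96, 9.80 and 10.32 in LAP tg marrow, against 9.56, 9.69 and 9.56 in WT marrow, and the part of myeloid cells in it was not tested.

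The largest fall was that of G530011O06Rik, a transcript that the annotation lists on chromosomes X and Y, so that its copies cannot be told apart. Its log2 signals were 7.27, 7.25 and 5.85 in LAP tg marrow, against 11.95, 10.01 and 10.21 in WT marrow, a change of -3.93 ± 0.51 (adjusted p = 0.00137). The spread among arrays of 1 group was large for this transcript, and the groups did not overlap. Xist, transcribed from the inactive X chromosome of females, was high on all arrays, at 12.62, 12.65 and 12.69 in LAP tg marrow and 12.48, 12.56 and 12.51 in WT marrow. Kdm5d, a gene of the Y chromosome, was dim, with means of 3.58 in LAP tg and 3.57 in WT marrow. Sertad4, a SERTA-domain gene, had 5.74, 6.26 and 6.02 in LAP tg marrow, against 8.32, 8.54 and 8.38 in WT marrow, a change of -2.41 ± 0.24 (adjusted p = 0.000299). Bend5, a BEN-domain transcriptional regulator, had 7.08, 6.83 and 7.16 in LAP tg marrow, against 8.82, 8.77 and 8.66 in WT marrow, a change of -1.73 ± 0.15 (adjusted p = 8.72e-05). Lax1, a membrane adaptor that dampens antigen receptor signalling, had 4.04, 4.11 and 4.64 in LAP tg marrow, against 5.88, 5.72 and 5.86 in WT marrow. It fell by 1.56 ± 0.20 (adjusted p = 0.00137). Gad1, a glutamate decarboxylase, fell by 1.51 ± 0.25 (adjusted p = 0.00731) and Gm11346, a predicted gene, by 1.42 ± 0.17 (adjusted p = 0.00112). The other Gad1 probe set gave -0.64 and was not called. These 6 genes had means above the filter level of 4.20 in both groups, though Lax1 lay below it on LAP tg arrays 1 and 2 and Gad1, at 4.15, on LAP tg array 2. They were called under all 17 alternatives.

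The other 9 of the 15 largest falls ended at dim signals in LAP tg marrow, so their sizes depend on the added constant. 1810073O08Rik fell by 2.44 ± 0.31, Ccnjl, a cyclin J relative, by 1.76 ± 0.23, Grb7, a signalling adaptor, by 1.85 ± 0.32, and Cracdl by 1.73 ± 0.30, with adjusted p of 0.00137, 0.0016, 0.00795 and 0.00862. Without LAP tg array 3 Cracdl was at -1.31. These 4 were called with any array left out, but Grb7 and Cracdl were not with only the 6 arrays in the fit (adjusted p = 0.0983 and 0.0743). For Ccnjl the other 2 probe sets gave -0.52 and 0.35, neither called. The calls of the remaining 5 were lost when single arrays were left out. Scn4b, a sodium channel subunit (-2.01 ± 0.39), was lost without WT array 1 or 3 and was -1.40 without LAP tg array 3. Crisp3, a secreted cysteine-rich protein (-2.22 ± 0.49), and Rspo2, an enhancer of Wnt signalling (-1.51 ± 0.36), were lost without any 1 of the 6 arrays. The other Rspo2 probe set gave 0.10 and was not called. Pgr, the progesterone receptor (-1.73 ± 0.44, and -1.22 without LAP tg array 3), held only without LAP tg array 1, and Pcsk6, a proprotein convertase (-1.58 ± 0.39), only without WT array 1. The adjusted p without an array reached 0.0668 for Scn4b, 0.105 for Crisp3, 0.145 for Rspo2, 0.14 for Pgr and 0.145 for Pcsk6.

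Genes of immature and mature B cells had mostly negative differences in LAP tg marrow. Of 32 measured, 5 were called lower and none higher, 30 had a negative change, and the median was -0.45 on the log2 scale (-0.43 without the third LAP tg array). For 21 of them every LAP tg array lay below every WT array, against 1729 of 13347 over all genes. Of all genes, 1.87% were called lower and 6592 had a negative change. Cr2, the complement receptor CD21 of mature B cells, had 7.64, 7.53 and 7.34 in LAP tg marrow, against 8.47, 8.58 and 8.47 in WT marrow, a change of -1.01 ± 0.18 (adjusted p = 0.00974). Ccr7, the receptor that guides lymphocytes into lymph nodes, had 8.58, 8.55 and 8.33 in LAP tg marrow, against 9.23, 9.42 and 9.12 in WT marrow, a change of -0.77 ± 0.12 (adjusted p = 0.00566). Both were called with any array left out. Cxcr5, the follicle-homing receptor, had 8.53, 8.46 and 8.58 in LAP tg marrow, against 9.36, 9.43 and 9.33 in WT marrow, a change of -0.85 ± 0.18 (adjusted p = 0.02). The MHC class II loading genes H2-DMb2 (-0.81 ± 0.16) and H2-Ob (-0.64 ± 0.14) were the other called members. Cxcr5, H2-DMb2 and H2-Ob were not called without WT array 1, 2 or 3, nor Cxcr5 and H2-Ob without LAP tg array 1, at adjusted p up to 0.0754, 0.0655 and 0.0809. The count of 5 was 11 on the values as deposited and 15 after median centring, and 2 without any 1 WT array. Uncalled members with larger differences than H2-Ob included Fcer2a, the CD23 receptor (-0.79 ± 0.27, adjusted p = 0.117), and Cd69 (-0.85 ± 0.24, adjusted p = 0.0712). Ighm, the µ heavy chain, was at 13.13, 13.16 and 13.12 in LAP tg marrow, against 12.98 to 13.01 in WT marrow, and was not called (0.14 ± 0.09, adjusted p = 0.423).

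Early B-lineage genes were called in both directions. Of 19 genes measured from a pro-B and large pre-B list, 3 were called higher and 1 lower, at a median of 0.09 (0.14 without the third LAP tg array). The shares over all genes were 2.1% higher and 1.87% lower. Vpreb1, a component of the surrogate light chain of the pre-B cell receptor, had 11.77, 11.79 and 11.37 in LAP tg marrow, against 11.05, 10.85 and 11.21 in WT marrow, a change of 0.61 ± 0.11 (adjusted p = 0.0109). Bst1, the BP-3 surface antigen of early B cells, had 8.33, 8.30 and 7.95 in LAP tg marrow, against 7.45, 7.55 and 7.47 in WT marrow, a change of 0.70 ± 0.12 (adjusted p = 0.0066). For both, the third LAP tg array was the lowest of its group, and without it the changes were 0.74 and 0.83. Vpreb1 was not called on the values as deposited, after median centring or with only the 6 arrays in the fit (adjusted p up to 0.115). Flt3, described above, was the other rise. Dntt, the terminal transferase that adds nucleotides at V(D)J joints, had 9.03, 8.67 and 7.79 in LAP tg marrow, against 9.51, 9.23 and 9.77 in WT marrow. It fell by 1.01 ± 0.24 (adjusted p = 0.0361), by 0.66 without the third LAP tg array (adjusted p = 0.0427), and was not called without WT array 1, 2 or 3 (adjusted p up to 0.143). Igll1, the other surrogate light chain gene, differed by 0.16 ± 0.15 and the recombinase genes Rag1 and Rag2 by -0.29 ± 0.16 and -0.55 ± 0.16, none of them called (adjusted p = 0.586, 0.325 and 0.0772).

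Of 27 B-lineage transcription factors, 1 was called higher and 1 lower, and the median was 0.00 (0.09 without the third LAP tg array). Counts in this paragraph stand against 2.1% called higher and 1.87% lower over all genes. Id3, an inhibitor of the E proteins, had 8.88, 9.0 and 8.51 in LAP tg marrow, against 9.74, 9.69 and 9.62 in WT marrow, a change of -0.89 ± 0.11 (adjusted p = 0.00116). E2f2, a regulator of S-phase entry, had 10.52, 10.62 and 10.40 in LAP tg marrow, against 9.87, 9.83 and 9.69 in WT marrow, a change of 0.72 ± 0.12 (adjusted p = 0.00743). Both were called under all 17 alternatives. Pax5 and Ebf1, the B-lineage commitment factors, differed by 0.22 ± 0.24 and -0.36 ± 0.19 and were not called (adjusted p = 0.651 and 0.321). For both, the third LAP tg array was the lowest of the group, at 6.46 and 10.37. Among 36 genes of B-cell receptor signalling, Lax1 and Fyn fell and Themis2 rose, at a median of -0.09 (-0.05 without the third LAP tg array). Themis2, a signalling adaptor of B cells and macrophages, changed by 0.52 ± 0.09 (adjusted p = 0.00811), and Fyn, a Src-family kinase, by -0.48 ± 0.10 (adjusted p = 0.0188). Themis2 was not called on the values as deposited (adjusted p = 0.0586), and Fyn was not without LAP tg array 1 or WT array 1 or 2 (adjusted p up to 0.0694). Of 3 measured light chain genes, Iglv1, a λ variable segment, fell by 0.87 ± 0.18 (adjusted p = 0.0188), and was not called without the third LAP tg array or WT array 1 or 2 (adjusted p up to 0.0784).

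Cell-cycle genes had mostly positive differences of small size. Of 34 measured, 3 were called higher and none lower, 32 had a positive change, and the median was 0.20 (0.19 without the third LAP tg array). Among all genes tested, 2.1% were called higher, 1.87% lower, and 6755 of 13347 had a positive change. E2f1, the S-phase regulator, had 7.18, 7.76 and 7.34 in LAP tg marrow, against 6.33, 6.64 and 6.37 in WT marrow, a change of 0.98 ± 0.20 (adjusted p = 0.0194). Mcm3, a subunit of the replicative helicase, changed by 0.64 ± 0.14 (adjusted p = 0.028). Its other probe sets above the filter gave 0.49 to 0.51, none called. Ccnd3, the D cyclin of pre-B cells, changed by 0.98 ± 0.22 (adjusted p = 0.0272), but its other 2 probe sets gave -0.49 and 0.36, neither called. Of the 3, E2f1 was lost without LAP tg array 2 and WT arrays 1 and 3, and Ccnd3 and Mcm3 without LAP tg array 2 and each WT array, Mcm3 also without LAP tg array 3 (adjusted p up to 0.0841, 0.0949 and 0.0926). The count of 3 was 1 on the values as deposited and 2 after median centring. Pmaip1, which encodes the pro-apoptotic BH3-only protein Noxa, had 7.87, 8.25 and 7.75 in LAP tg marrow, against 6.46, 6.57 and 6.36 in WT marrow. It rose by 1.49 ± 0.13 (adjusted p = 0.000107), was called under all 17 alternatives, and was the only 1 of 24 apoptosis regulators called. In immediate early genes the median was 0.21 over 27 measured, and only Klf4 was called (1.03 ± 0.26, adjusted p = 0.0462). That call was lost without any 1 of the 6 arrays (adjusted p up to 0.175). Fos had 9.47, 9.09 and 9.94 in LAP tg marrow, against 8.66, 8.61 and 7.02 in WT marrow, with WT array 3 well below the others and no call (1.40 ± 0.66, adjusted p = 0.246).

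Of 50 measured chemokine and cytokine receptors, 6 were called higher and 4 lower, at a median of 0.10, and of 0.03 without the third LAP tg array. Among all genes tested, 2.1% were called higher and 1.87% lower. Il6ra, the ligand-binding chain of the interleukin-6 receptor, had 7.61, 8.24 and 6.91 in LAP tg marrow, against 6.23, 5.86 and 5.59 in WT marrow, a change of 1.69 ± 0.33 (adjusted p = 0.0159). Here the third LAP tg array was the lowest of its group, and without it the change was 2.03. The call was lost without WT array 2 or 3 (adjusted p up to 0.0732). Another Il6ra probe set gave 0.39 ± 0.21 and was not called (adjusted p = 0.344 among all probe sets). Il10ra (0.62 ± 0.13) and Il17ra (0.44 ± 0.10) rose with Csf2rb, Flt3 and Il9r. Il10ra was lost without WT array 2 or 3 and Il17ra without LAP tg array 2 or any 1 WT array (adjusted p up to 0.0689 and 0.0995). The falls were in the homing receptors Ccr7, Cxcr5 and Ccr9 and in P2ry10, a receptor of lysophospholipids. Ccr9, which responds to the gut and thymus chemokine CCL25, had 7.33, 7.18 and 7.24 in LAP tg marrow, against 8.28, 8.40 and 8.80 in WT marrow, a change of -1.24 ± 0.30 (adjusted p = 0.0365). P2ry10 had 9.15, 9.13 and 9.18 in LAP tg marrow, against 10.17, 10.09 and 10.43 in WT marrow, a change of -1.07 ± 0.23 (adjusted p = 0.0256). Both calls were lost without any 1 of the 6 arrays, at adjusted p up to 0.143 and 0.103. Over the receptors, the counts of higher and lower calls were 3 and 5 on the values as deposited, 5 and 7 after median centring, 4 and 2 without the third LAP tg array, and between 1 and 3 and at 1 without a WT array.

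Of 22 Toll-like receptors and partners, 3 were called higher and none lower. For all genes tested the shares were 2.1% higher and 1.87% lower, and 6592 of 13347 had a negative change. Tlr2 (0.54 ± 0.13), the adaptor gene Myd88 (0.36 ± 0.09) and the inhibitory kinase gene Irak3 (0.68 ± 0.10) rose, with adjusted p of 0.0347, 0.0403 and 0.00388. Irak3 had 7.64, 7.71 and 7.77 in LAP tg marrow, against 7.07, 7.01 and 7.01 in WT marrow, and was called with any array left out. Its other probe set gave -0.10, and with the mean of both probe sets it was not called (adjusted p = 0.229). Myd88 was lost without any 1 of the 6 arrays and Tlr2 without any but LAP tg array 1 (adjusted p up to 0.146 and 0.112). Among 26 chemokines and cytokines, Ccl3, Ccl9 and Il12a were called higher. Il12a, the p35 subunit of interleukin-12, had 9.97, 9.70 and 9.56 in LAP tg marrow, against 9.12, 9.06 and 9.10 in WT marrow, a change of 0.65 ± 0.13 (adjusted p = 0.0188). It was lost without LAP tg array 1 and without each WT array (adjusted p up to 0.0662). Il6, Csf2, Csf3, Il10 and Cxcl2 did not pass the filter on dim probe sets. Of 33 interferon response genes, 25 had a negative change at a median of -0.25, and Trim30a alone was called (-0.56 ± 0.14, adjusted p = 0.0434). Its call was lost without any 1 array other than LAP tg array 1 (adjusted p up to 0.145), and 6 genes of the list were called lower after median centring.

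**Figure D4:**
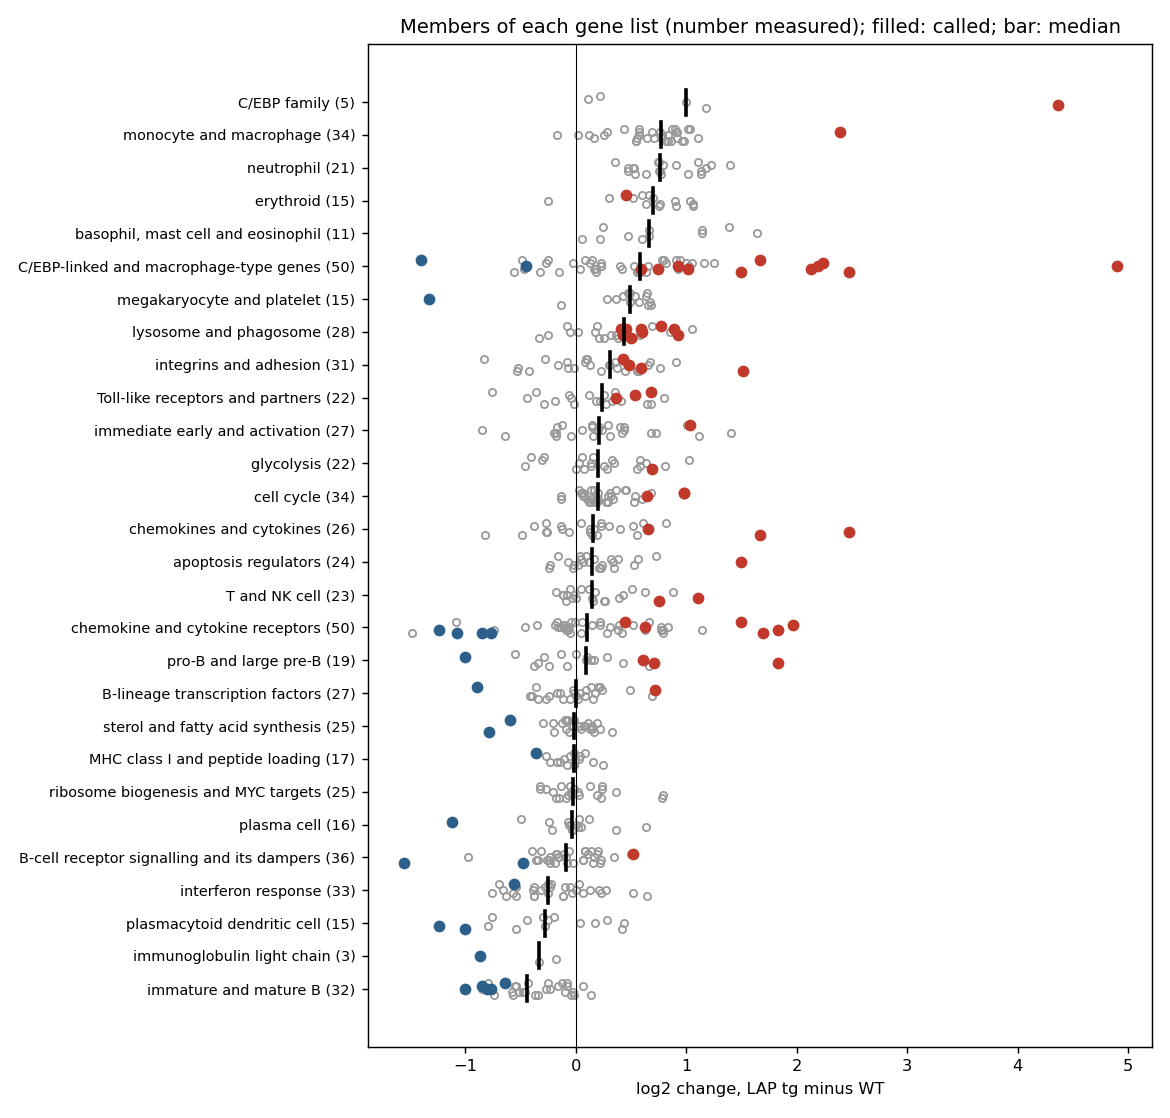
Log2 change, LAP tg minus WT, of every measured member of 28 gene lists, ordered by the list's median (black bar). Filled red points are called higher, filled blue points called lower and open grey points not called; the immature and mature B list lies lowest at a median of -0.45 with 5 blue points, and the lysosomal list has 9 red points at a median of 0.44.

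Lists of myeloid and erythroid cells had positive median changes in LAP tg marrow with few calls. All 21 measured neutrophil genes had a positive change, at a median of 0.76, and none was called. Without the third LAP tg array the median was 0.12. Among all genes tested, 6755 of 13347 had a positive change, 2.1% were called higher and 1.87% lower. For monocyte and macrophage genes the median was 0.77 over 34 measured, and 0.34 without that array, with Vcan the only call in either case. Without LAP tg array 2, the neutrophil, monocyte and erythroid lists had 1, 7 and 2 members called higher. For erythroid genes the median was 0.70, and 0.18 without the third LAP tg array. Tfrc, the transferrin receptor of dividing and erythroid cells, was the only erythroid call (0.46 ± 0.11, adjusted p = 0.0364, and 0.35 with adjusted p = 0.102 without the third LAP tg array). It was also lost without LAP tg array 1 and without each WT array. Basophil, mast cell and eosinophil genes had a median of 0.66, and 0.27 without the third LAP tg array, with no call among 11. Of 23 T and NK cell genes, Thy1 (1.10 ± 0.28) and Tbx21 (0.75 ± 0.19) were called, both close to the threshold at adjusted p of 0.0436 and 0.0442. Thy1 was lost without any 1 of the 6 arrays and Tbx21 without any other than LAP tg array 1 (adjusted p up to 0.159 and 0.117). Of 15 plasmacytoid dendritic cell genes, 2 were called lower, Ccr9 and Dntt, both of which early lymphoid cells also express. The plasma cell list had a median of -0.03 and 1 call, Fkbp11 (-1.13 ± 0.28, adjusted p = 0.0445), lost without any 1 array other than LAP tg array 3 (adjusted p up to 0.127). The megakaryocyte list had a median of 0.49 and 1 call, Nrgn, which fell by 1.33 ± 0.26 (adjusted p = 0.0137) and was lost without WT array 3 (adjusted p = 0.0662).

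Of 31 measured integrin and adhesion genes, 4 were called higher and none lower, at a median of 0.31, and of 0.17 without the third LAP tg array. Counts in this paragraph stand against 2.1% called higher and 1.87% lower over all genes. Cd44, the hyaluronan receptor, had 10.39, 10.36 and 10.68 in LAP tg marrow, against 9.87, 9.82 and 9.99 in WT marrow, a change of 0.58 ± 0.09 (adjusted p = 0.00388), which was called with any array left out. Its other probe sets gave 0.33 and 0.05, neither called, and it was not called with the mean of its probe sets or on the values as deposited (adjusted p up to 0.0673). Itga1, a collagen-binding integrin chain, rose by 1.51 ± 0.33 from dim WT signals (adjusted p = 0.0255). Pecam1 (0.48 ± 0.12) and Spn, the sialoprotein CD43 (0.42 ± 0.11), were the other calls. Itga1 was lost without LAP tg array 3 or WT array 2 or 3 (adjusted p up to 0.102), and Pecam1 and Spn without any 1 of the 6 arrays (adjusted p up to 0.14 and 0.139). The count of 4 was 1 on the values as deposited and 1 without the third LAP tg array. Metabolic and housekeeping lists held few calls. Hk2, a hexokinase, was higher (0.69 ± 0.14, adjusted p = 0.0161) among 22 glycolysis genes. Among 25 sterol and fatty acid genes Scd1, a desaturase (-0.59 ± 0.14), and Abca1, a cholesterol exporter (-0.79 ± 0.16), were lower, with adjusted p of 0.0346 and 0.0173. Hk2 was lost without WT array 1 or 2, Abca1 without any 1 WT array and Scd1 without any 1 of the 6 arrays (adjusted p up to 0.0627, 0.0652 and 0.12). Of 17 MHC class I and loading genes Pdia3, a disulfide isomerase, was lower (-0.36 ± 0.08, adjusted p = 0.0302). It was lost without any 1 array other than LAP tg array 1 (adjusted p up to 0.127). No member of 25 ribosome biogenesis and MYC target genes was called, at a median of -0.03 (0.02 without the third LAP tg array).

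The same transgene was present in Blnk KO marrow, where LAP tg/Blnk KO arrays were set against Blnk KO arrays. The 2 changes share no array. In Blnk KO marrow 1023 genes were called (7.66% of those tested), 442 higher and 581 lower. Of the 530 genes called in Blnk-sufficient marrow, 424 had the same sign in Blnk KO marrow. For 173 the change was called in the same direction there and for 14 in the opposite one. The same counts over all genes tested were not made, so this agreement is described only. A test of the difference itself, the interaction term of the same fit, called 231 of all genes (1.73%), 74 of them among the 530. The interaction subtracts the same change that selected the 530. The 74 can therefore not be set against the share over all genes. Cebpb rose by 4.65 in Blnk KO and by 4.36 in Blnk-sufficient marrow, and its interaction was not called. The changes of B3galt1 (3.94 in Blnk KO and 4.90 in Blnk-sufficient marrow), F13a1 (2.54 and 2.13), Sertad4 (-2.35 and -2.41), Bend5 (-2.49 and -1.73) and Lax1 (-1.5 and -1.56) were not called as different either, which does not show that they are equal.

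Several rises were called larger in Blnk-sufficient marrow. They were picked for their rise there, which by itself favours a larger change on that side. Fes changed by 0.20 ± 0.13 in Blnk KO marrow, against 1.79 ± 0.13 in Blnk-sufficient marrow, a difference of -1.59 (adjusted p of the interaction 0.000633). Its mean was 8.15 in Blnk KO and 6.56 in WT marrow, and 8.35 in LAP tg and in LAP tg/Blnk KO marrow. Anxa2 differed by 0.45 in Blnk KO and 2.24 in Blnk-sufficient marrow. Csf2rb differed by 0.42 in Blnk KO and 1.49 in Blnk-sufficient marrow, and Ccl3 by -0.01 in Blnk KO and 2.47 in Blnk-sufficient marrow. Ccl9 went the other way, with 3.36 in Blnk KO and 1.67 in Blnk-sufficient marrow. Starting levels differed: Anxa2 had a mean of 8.62 in Blnk KO and 8.22 in WT marrow, and Ccl3 4.87 and a dim 3.55. Csf2rb had 8.54, 8.86 and 8.57 in Blnk KO marrow, against 7.91, 7.80 and 8.13 in WT marrow. The part of these levels in the interaction was not tested. The falls of mature B-cell genes were larger in Blnk KO marrow, with Cxcr5 at -4.03 and Ccr7 at -2.65, against -0.85 and -0.77 in Blnk-sufficient marrow. Igha, the heavy chain of IgA, had 10.88, 11.27 and 12.37 in LAP tg marrow, against 10.14, 10.14 and 10.26 in WT marrow. That rise of 1.33 ± 0.28 (adjusted p = 0.0208), highest on the third LAP tg array, stood against a change of -6.87 in Blnk KO marrow. Without that array the rise was 0.90, and it was lost without any 1 WT array (adjusted p up to 0.079). The other 2 Igha probe sets were not called (0.98 and 1.27, adjusted p = 0.208 and 0.101).

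**Figure D5:**
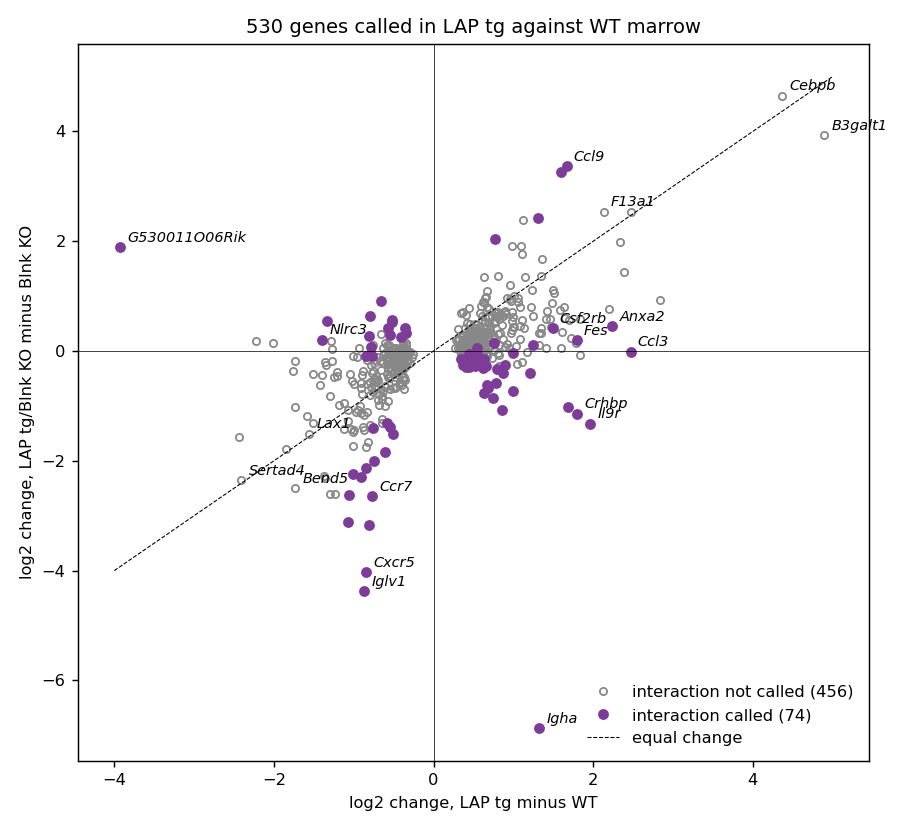
Log2 change with LAP in Blnk KO marrow (vertical axis, LAP tg/Blnk KO minus Blnk KO) against that in Blnk-sufficient marrow (horizontal axis, LAP tg minus WT) for the 530 genes called in Blnk-sufficient marrow. Purple points are the 74 genes with a called interaction, grey points the others, and the dashed line marks equal change; Cebpb and F13a1 lie near it, while Igha (-6.87 against 1.33) and G530011O06Rik (1.90 against -3.93) lie far from it.

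C/EBP factors bind palindromic sites whose core can be written TTGCNNAA. This core was searched on both strands in the 250 bases before each gene start listed in RefSeq (build GRCm38.p6), without regard to overlap with other motifs. It was found in 9.56% of 32851 listed promoters and in 7.87% of 13778 promoters of genes tested. It was found in 6.17% of 308 promoters of genes called higher and in 8.53% of 258 promoters of genes called lower. None of the 18 listed promoters of the 15 largest rises and 3 of the 15 of the largest falls held it. Among the 66 genes called at least 2-fold higher, 51 had a listed promoter and at least 6 of these a match. The sequences of 3 genes with a match, chosen after their values were seen, show what such matches look like. They are read along the gene's strand, with the match in capitals. For F9 the capitals are the core itself. For Pparg and Rap1gap2 the core lies on the opposite strand, so the capitals show its reverse complement.
F9, chrX:59999415-59999463, plus strand: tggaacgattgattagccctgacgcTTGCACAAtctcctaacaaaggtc
Pparg, chr6:115422025-115422065, plus strand: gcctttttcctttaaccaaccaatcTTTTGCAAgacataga
Rap1gap2, chr11:74559155-74559212, minus strand: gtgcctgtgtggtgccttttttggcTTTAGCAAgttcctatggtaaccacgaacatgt
The capitals begin 24 bases before the listed start of F9, coagulation factor IX. They begin 16 bases before that of Pparg, a nuclear receptor of fat cells and macrophages. For Rap1gap2, a GTPase-activating protein for Rap1, they begin 160 bases before the listed start. F9 had 6.44, 6.09 and 6.19 in LAP tg marrow, against 5.22, 4.97 and 5.29 in WT marrow, a change of 1.08 ± 0.19 (adjusted p = 0.00795). Rap1gap2 had 7.66, 7.73 and 8.08 in LAP tg marrow, against 6.42, 6.43 and 6.38 in WT marrow, a change of 1.42 ± 0.15 (adjusted p = 0.00052). Pparg had 6.37, 6.14 and 6.82 in LAP tg marrow, against 5.14, 5.30 and 5.37 in WT marrow, a change of 1.17 ± 0.28 (adjusted p = 0.0378). The groups did not overlap for these genes, and the call of Pparg was lost without any 1 array other than LAP tg array 2 (adjusted p up to 0.128). A match is a description of the letters and not a binding site.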

How the data were processed

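Total RNA of sorted B220-positive marrow cells was hybridized to Affymetrix mouse genome arrays, 1 array per sample. The deposited values are linear intensities per probe set. MAS5 is named, with no version, in the submitters' processing notes, and whether arrays were scaled to a common target is not stated there. Of 45101 probe sets, 64 controls were left out, 34945 had 1 gene symbol, 932 several and 9160 none; 34741 matched RefSeq genes, which changed 0 symbols.

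The 12 marrow arrays of 4 groups were transformed as log2 (intensity + 4), where 4 is 0.2 of the median of 21.1, and quantile-normalized, which removes overall differences between arrays. A probe set had to exceed the 40th percentile of its own array on 3 or more of the 12. A gene was represented by the probe set with the highest mean over all 21 arrays, among 18193 genes, of which 9010 have several. limma 3.58.1 (R 4.3.3) with an intensity trend gave changes, standard errors and p-values, adjusted by Benjamini-Hochberg over all 13347 genes, with calls under 0.05. Figures used matplotlib 3.10.9 under python 3.11.15. The scripts were tested on simulated data. The number of arrays limits the precision.

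The comparison, the 28 gene lists and the rule for named genes were chosen with earlier results of these data known. The rule names all Cebpb and Blnk probe sets, the 15 largest called rises and falls without overlap, the called members of each list or its 4 largest changes, the 10 called genes with the smallest interaction p, and the 10 genes that most set LAP tg array 3 apart. Alternatives changed the normalization, the added constant, the filter, the probe set rule, the arrays in the fit, array weights, the trend and a replicate block, and left out each array in turn. Same-numbered arrays did not deviate together (r of 0.05, -0.10 and -0.01 over genes), so the numbers were not taken as pairs.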

Additional observations from a re-analysis of the deposited data

Results flagged for a closer look

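For 29 genes named in the text or by its rules, the LAP change differed between Blnk KO and Blnk-sufficient marrow by the interaction term in limma (adjusted p under 0.05). The values are log2 changes in Blnk KO minus those in Blnk-sufficient marrow. Genes named for a call in Blnk-sufficient marrow were chosen by the change that is subtracted here, which favours such differences. Immunoglobulin genes and the plasma cell gene Jchain had the most negative differences, with Igha at -8.20, Jchain at -5.98, Igkv8-30 at -4.18 and Iglv1 at -3.51. Among genes of mature B cells and antigen presentation, Cxcr5 differed by -3.18, Ms4a1 by -2.54, H2-DMb2 by -2.36, H2-Aa by -2.16, P2ry10 by -2.03, Ccr7 by -1.88, Cr2 by -1.24 and Gimap8 by -0.64. Genes that rose with LAP in Blnk-sufficient marrow and had a smaller or negative change in Blnk KO marrow were Il9r (-3.29), Crhbp (-2.94), Ccl3 (-2.48), Anxa2 (-1.79), Ahnak (-1.61), Fes (-1.59), Ncf1 (-1.14), Csf2rb (-1.08), Psap (-0.86), Themis2 (-0.79) and Grn (-0.75). Starting levels also differed: Crhbp had a mean of 8.34 in Blnk KO and 3.30 in WT marrow. Ncf1 had 8.48, 8.95 and 8.76 in Blnk KO marrow, against 9.66, 9.73 and 9.66 in WT marrow. Fgd2, uncalled in Blnk-sufficient marrow, differed by -2.25. The difference was positive for G530011O06Rik (5.83), Nrgn (1.88), Ccl9 (1.70), Nlrc3 (1.61) and Cav2 (1.58). Ccl9 rose in both settings and more in Blnk KO marrow, while the other 4 were called lower in Blnk-sufficient marrow.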

How the results depend on the processing

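The 530 calls (280 higher, 250 lower) were 333 (102 higher) on the values as deposited, 665 after median centring (466 lower), 281 (148 and 133) with only the 6 arrays in the fit, 1034 (510 and 524) with array weights, which gave the third LAP tg array 0.361, and 301 (153 and 148) without the intensity trend. With the replicate block they were 557. Leaving out 1 array gave 169 to 532 calls, 96 to 293 higher and 72 to 239 lower: 169, 170 and 239 without WT arrays 3, 1 and 2, and 338, 380 and 532 without LAP tg arrays 3, 1 and 2. The 231 called interactions were 123 on the values as deposited, 600 with array weights, 145 without the trend, 247 with the replicate block and 137 to 288 with 1 array left out, lowest without WT arrays 3 and 1 (137 and 140). Added constants of 1 and 16 gave 528 and 552 calls, no filter 440, a filter at the 60th percentile 608, and the mean of a gene's probe sets 521. Of the 530 genes, 2 changed sign under the last setting and none under the others. Over the named genes, 2678 values kept their side of the threshold, 359 lost a call, 44 gained one and none reversed after a call; 205 list counts moved by more than 1.5 times and 747 did not. The cause of these moves was not tested. Changes of genes with dim signals are limited by background.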

Other observations

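Gene families that the lists do not cover were looked up after their values were seen and are described only. The GIMAP genes, lymphocyte GTPases that lie together on chromosome 6, were lower in LAP tg marrow: of 8 measured, 6 were called lower and none higher, at a median of -0.76 on the log2 scale. Gimap7 had 7.48, 7.40 and 7.29 in LAP tg marrow, against 8.55, 8.54 and 8.45 in WT marrow, a change of -1.12 ± 0.11 (limma, adjusted p = 0.000302). Gimap5 fell by 1.03 ± 0.15, Gimap3 by 0.92 ± 0.15, Gimap8 by 0.76 ± 0.10, Gimap6 by 0.75 ± 0.13 and Gimap1 by 0.69 ± 0.09, each called with any array left out. Gimap4 and Gimap9 differed by -0.52 and -0.51 and were not called (adjusted p = 0.12 and 0.0937). In each of the 8, every LAP tg array lay below every WT array, as in 1729 of all 13347 genes tested. The share called lower over all genes was 1.87%.

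Of 11 coagulation factor genes, 6 were measured and 3 were called higher. The share called higher over all genes was 2.1%. F5, coagulation factor V, had 8.77, 8.74 and 8.88 in LAP tg marrow, against 7.31, 7.74 and 7.65 in WT marrow, a change of 1.23 ± 0.14 (adjusted p = 0.000559), beside F9 (1.08) and F13a1 (2.13). Of 8 E2F genes, E2f1 and E2f2 were called higher and none lower, at a median of 0.15. Of 3 measured NAIP genes, which encode sensors of bacterial proteins, Naip6 (0.82 ± 0.13, adjusted p = 0.00551) and Naip5 (0.90 ± 0.23, adjusted p = 0.046) were called higher. Naip2 differed by 0.93 ± 0.27 (adjusted p = 0.073). These NAIP genes are related, so their probe sets may share signal, which was not checked. Naip5 was not called without the third LAP tg array (0.56), without LAP tg array 1 or without any 1 WT array (adjusted p up to 0.145).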
